A study of Mus musculus with 6 samples.

Results

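The 8 Krüppel-like factor genes Klf2, Klf3, Klf4, Klf6, Klf7, Klf9, Klf10 and Klf13 were examined in infarct macrophages that lacked integrin α5. They were chosen as a list of gene symbols from a count table of 54532 genes that held 17 rows with a Klf symbol, and all 8 members had enough counts to be tested. The libraries came from 6 mice of C57BL/6 background at 12 weeks of age, 7 days after infarction by a lasting occlusion of the left anterior descending artery. In 3 mice (ITGA5 fl/fl, below called controls) the Itga5 gene was flanked by loxP sites and intact. In the other 3 mice (Myα5KO) the same floxed alleles were combined with LyzM-Cre, a Cre recombinase driven by the lysozyme M promoter, which is active in macrophages and also in neutrophils and other myeloid cells. Each heart was digested, Ly6G+ cells were depleted on a magnetic column and CD11b+ cells were retained from the remainder, so that any CD11b+ cell without Ly6G could enter a library.

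KLFs are transcription factors with 3 zinc fingers at the C-terminus that bind GC-rich and CACCC sequences, and members differ mainly in the N-terminal part that recruits partners. In blood and vessel cells KLF2 and KLF4 are known for restraining inflammatory activation, KLF4 also for monocyte differentiation and alternative macrophage activation, and KLF6 for favoring inflammatory gene expression in macrophages. KLF3 represses through the CtBP co-repressor, whereas KLF9, KLF10 and KLF13 contain a Sin3A interaction domain. Transcripts of Klf2, Klf4, Klf6 and Klf10 are also known to rise rapidly when cells are stressed or handled.

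Among the 8 members, Klf4 was higher and Klf7 was lower in Myα5KO macrophages (edgeR adjusted p of 0.05 or less). The remaining 6 did not pass the test. Of 14522 tested genes, 3.56% were called higher and 5.19% lower, or 8.75% in either direction, and 1 call in each direction among 8 genes is a small number to set against these shares. All differences were below 1.5-fold on average. Klf2 had the largest positive fold change of the members and did not pass the threshold, with 1 Myα5KO library below all controls.

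The stretches of DNA upstream of Klf4 and Klf7, the called members, and of Klf2 are shown to give the sequence context of the genes the results turn on. They were taken from RefSeq promoter windows of build GRCm38.p6, cover 250 bases before the RefSeq start, and end at the first base of an annotated exon where one lay within the window. Capitals mark the letters CACCC and GGGCGG on either strand, the core of the boxes that KLF and Sp proteins bind, and in Klf2 the match to the MEF2 consensus. Matches were counted also where they overlapped. The Klf7 stretch lies in an intron of a longer annotated Klf7 transcript.

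Klf4, chr4:55532476-55532725, minus strand: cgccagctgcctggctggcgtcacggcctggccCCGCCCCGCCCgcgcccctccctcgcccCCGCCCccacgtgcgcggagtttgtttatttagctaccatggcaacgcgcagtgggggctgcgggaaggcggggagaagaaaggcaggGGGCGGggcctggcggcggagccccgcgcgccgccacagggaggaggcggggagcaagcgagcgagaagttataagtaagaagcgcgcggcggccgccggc

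Klf2, chr8:72318812-72319032, plus strand: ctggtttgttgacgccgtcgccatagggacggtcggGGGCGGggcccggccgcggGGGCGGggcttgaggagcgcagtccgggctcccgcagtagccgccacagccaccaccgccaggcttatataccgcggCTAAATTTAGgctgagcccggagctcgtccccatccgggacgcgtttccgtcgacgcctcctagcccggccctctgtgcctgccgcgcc

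Klf7, chr1:64121492-64121639, minus strand: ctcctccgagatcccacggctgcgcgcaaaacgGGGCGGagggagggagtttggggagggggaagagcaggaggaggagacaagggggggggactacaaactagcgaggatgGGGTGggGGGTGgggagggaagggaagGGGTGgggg

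RefSeq windows were matched by symbol for 7 of the 8 members, with none used for Klf10. In the 7 windows of 250 bases, GGGCGG occurred in 6 and CACCC in 5, compared with 32.7% and 52% of 32851 promoter windows of the same length. The Klf4 window held GGGCGG at 4 positions and no CACCC. The printed Klf7 stretch held CACCC at 3 positions and GGGCGG at 1. The MEF2 consensus, the recognition sequence of the factors that act downstream of the kinase ERK5, was found in the Klf2 window alone among the 7, ending 108 bases before the RefSeq start. This match was present in 2.92% of all windows. The letters CCAAT were found in 3 of the 7 windows (33.8% of all windows), and TATAAA (12.4%), TGACGTCA (1.55%) and the CArG box (1.47%) in 0 of the 7. The 7 windows were rich in G and C, from 59.2% in Klf7 to 78.4% in Klf3, against a median of 52.4% over all windows. These matches describe letters in the sequence and were not related to the expression values.

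Myα5KO replicate 3 differed more from the other libraries of its group than the controls did from each other. Library totals were 15424451 to 18152357 counts for controls and 18232574 to 18419287 for Myα5KO. Itga5 itself checked the labels and was left at 8.02% of controls, while Lyz2, the locus that carries Cre in LyzM-Cre mice, was at 53%. By a chi-square statistic per degree of freedom, Myα5KO replicate 3 differed from replicates 1 and 2 by 15 and 10.1, compared with 5.66 to 7.77 between other libraries of a group. Values without this library are given beside the members it affects.

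To see which members infarct macrophages transcribe most, FPKM values (fragments scaled to gene length and library size) were compared, as they allow a comparison of levels between genes. Klf6 had the highest level in ITGA5 fl/fl macrophages, with 191 ± 6.73 FPKM, followed by Klf4 with 133 ± 22.4 and Klf2 with 51.5 ± 5.61 FPKM (SD, n = 3). Klf13 (26.5 ± 1.60 FPKM) and Klf10 (21.1 ± 1.88 FPKM) were intermediate. Klf3 (9.16 ± 0.831 FPKM), Klf9 (7.89 ± 0.411 FPKM) and Klf7 (5.33 ± 0.208 FPKM) had the lowest levels of the 8. Neighbors in this order did not overlap in any ITGA5 fl/fl library. In Myα5KO macrophages the order of Klf6 and Klf4 was no longer separated, with 178 ± 8.24 and 175 ± 13.2 FPKM, and Klf13 (22.9 ± 3.39 FPKM) overlapped with Klf10 (23.3 ± 3.51 FPKM).

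**Figure D1:**
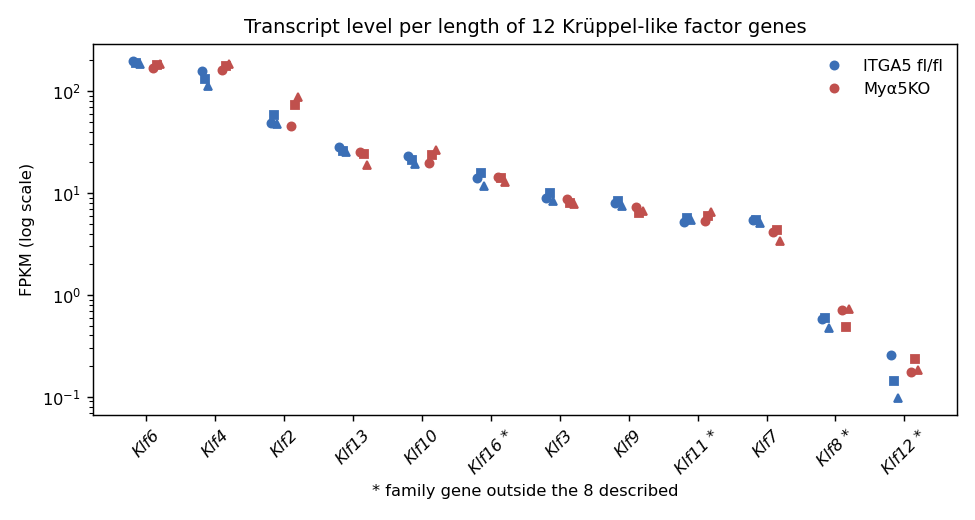
FPKM on a log axis for the 12 Krüppel-like factor genes that were tested, with 1 point per library, in blue for ITGA5 fl/fl and red for Myα5KO; circles, squares and triangles stand for replicates 1, 2 and 3. Klf6 and Klf4 lie above 100 FPKM in all libraries, whereas the members Klf3, Klf9 and Klf7 lie near or below 10 FPKM and genes marked with an asterisk are not among the 8.

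The 8 members accounted for 95.2% to 96.2% of the summed FPKM of the 17 Klf rows. Of this sum, Klf6 took 39.8%, 40.0% and 43.3% in the controls, compared with 36.7%, 34.9% and 33.9% after loss of Itga5. The portion of Klf4 was 31.5%, 27.9% and 26.2% in the controls, compared with 34.8%, 34.2% and 34.4% after loss of Itga5. The groups did not overlap for either share, with an exact two-sided permutation p of 0.1, the smallest value that 3 against 3 libraries can give (Benjamini-Hochberg adjusted p 0.2 over 10 such measures). The ratio of Klf4 to Klf6 CPM within a library, which does not depend on how libraries are scaled to each other, reached 0.550, 0.484 and 0.420 in the controls against 0.659, 0.680 and 0.703 without Itga5 (exact permutation p 0.1, adjusted p 0.2). CPM are counts relative to a library total adjusted by TMM factors.

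Among the members of the activating KLF branch, Klf4 (ENSMUSG00000003032, GRCm38 chromosome 4, 55527143 to 55532466, minus strand, protein coding) had 480.1, 402 and 344 CPM in the controls against 489, 546 and 576 CPM in Myα5KO hearts. The lowest Myα5KO library exceeded the highest ITGA5 fl/fl library by a narrow margin, and the controls were widely spread. Mean expression rose from 409 ± 68.3 to 537 ± 44.0 CPM (SD, n = 3 each), or to 131%. Its log2 fold change was 0.39 (SE 0.10, edgeR adjusted p 0.0333). DESeq2 and limma-voom also called Klf4. Klf4 was no longer called when control replicate 2 or 3 or Myα5KO replicate 2 or 3 was left out, at log2 fold changes of 0.28 to 0.38. It was 0.34 without Myα5KO replicate 3 (edgeR adjusted p 0.0808). On the FPKM scale the difference was 0.40 and also not called (limma adjusted p 0.115 and 0.117). Adjusted p ranged from 0.00437 (DESeq2) to 0.144 (edgeR without control replicate 3) over the alternatives, leaving out the fit without a count filter.

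Klf2 (ENSMUSG00000055148, chromosome 8, 72319033 to 72321656, plus strand, protein coding), known for its induction by fluid shear stress in endothelium and for keeping lymphocytes and monocytes quiescent, had 90.3, 108 and 88.5 CPM in ITGA5 fl/fl macrophages. In Myα5KO macrophages it had 84.5, 137 and 164 CPM. Myα5KO replicate 1 lay below all controls, whereas replicates 2 and 3 lay above them. Means were 95.6 ± 10.8 CPM for the controls and 128 ± 40.3 CPM for Myα5KO (SD, n = 3 each). The resulting log2 fold change, 0.43 (SE 0.17), did not pass the test (edgeR adjusted p 0.149). Without Myα5KO replicate 1 the log2 fold change was 0.65 and Klf2 was called (edgeR adjusted p 0.0012). Without Myα5KO replicate 3 the log2 fold change was 0.21 (edgeR adjusted p 0.453). These were the lowest and highest adjusted p of the alternatives, leaving out the fit without a count filter, which also called Klf2. The coefficient of variation of Klf2 in Myα5KO libraries was 31.4%, against at most 2.72% from counting error at 1347 to 3115 counts per library.

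Klf6 (ENSMUSG00000000078, chromosome 13, 5861482 to 5870394, plus strand, protein coding), the most abundant member, had 873, 831 and 819 CPM in the controls against 742, 803 and 819 CPM in Myα5KO hearts. The groups overlapped at their margin, and the difference was not called (log2 fold change -0.09, SE 0.07, edgeR adjusted p 0.462). With 13026 to 15578 counts per library, Klf6 was the member measured with the highest depth.

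Klf7 (ENSMUSG00000025959, chromosome 1, 64029447 to 64122282, minus strand, protein coding), a broadly expressed factor studied mainly in neurons and adipocytes, was the member with the clearest difference. It had 44.3, 44.8 and 41.5 CPM in the controls against 33.9, 35.1 and 28.2 CPM in Myα5KO hearts. Each Myα5KO library was below each control, and the gap between the groups exceeded the range of the controls. Mean expression fell from 43.5 ± 1.77 to 32.4 ± 3.64 CPM (SD, n = 3 each), or to 74.4%. Its log2 fold change came to -0.43 (SE 0.09, edgeR adjusted p 0.00944). Klf7 stayed called whichever of the 6 libraries was left out, with log2 fold changes from -0.49 to -0.34, the latter without Myα5KO replicate 3 (edgeR adjusted p 0.0214). It missed the threshold on the FPKM scale only (limma adjusted p 0.0634 and 0.0643). The latter was the highest of the alternatives and the DESeq2 adjusted p of 0.00136 the lowest, leaving out the fit without a count filter. Counts lay between 537 and 762 per library, which gives a counting error of 3.62% to 4.32%.

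**Figure D2:**
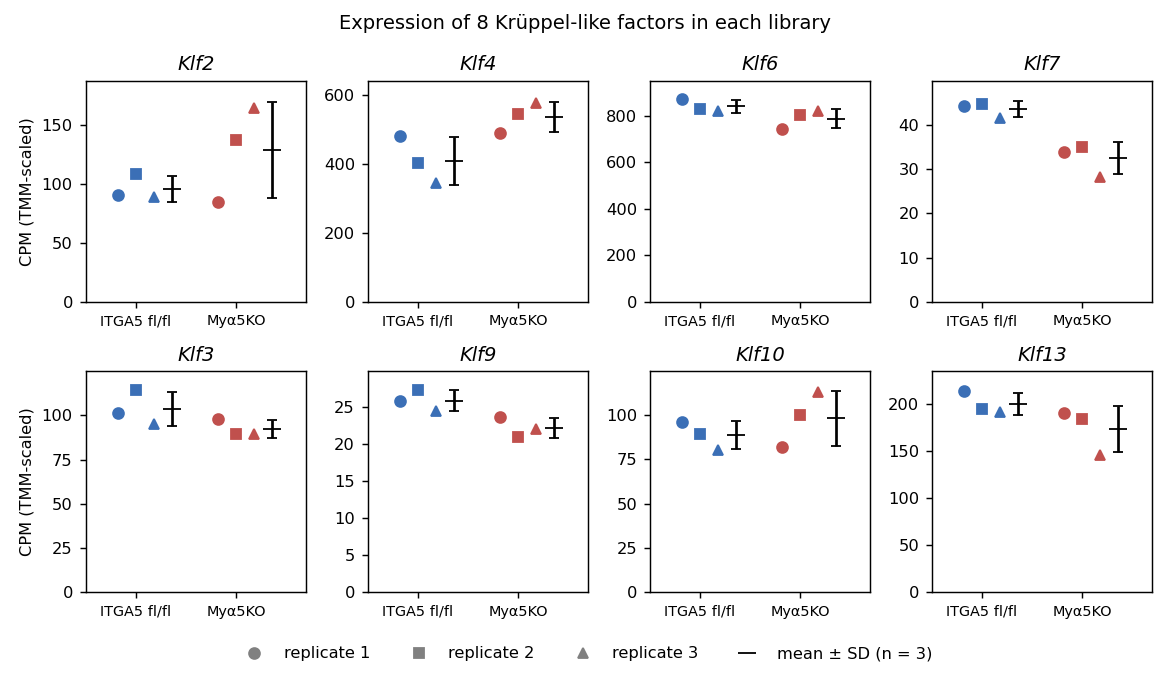
Expression of the 8 members in CPM (TMM-scaled) in each library, with ITGA5 fl/fl in blue, Myα5KO in red, symbols for replicate numbers and bars for mean ± SD (n = 3). Klf4 is above and Klf7, Klf9 and Klf13 are below the controls in every Myα5KO library, whereas Klf2 spans 84.5 to 164 CPM within the Myα5KO group.

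Among the members of the repressor branch, 0 of 4 were called by edgeR or DESeq2. Of these, 3 (Klf3, Klf9 and Klf13) had a negative log2 fold change with an unadjusted p under 0.05. Of all tested genes, 23.1% had such a p in either direction. With library totals as the only scaling the 3 unadjusted p-values were 0.293, 0.148 and 0.183 (edgeR). Without Myα5KO replicate 3 they were 0.102, 0.0464 and 0.175 (edgeR). Klf3 (ENSMUSG00000029178, chromosome 5, 64803388 to 64832901, plus strand, protein coding), which recruits CtBP and is known from B-cell and fat development, had 101, 114 and 95.2 CPM in the controls against 97.9, 89.7 and 89.3 CPM in Myα5KO hearts. The groups overlapped, and the log2 fold change of -0.17 (SE 0.08) was not called (edgeR adjusted p 0.212). The gene C230096K16Rik lies within Klf3 on the same strand and held 30 to 59 counts per library, so a small share of Klf3 reads could not be assigned with certainty.

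Klf9 (ENSMUSG00000033863, chromosome 19, 23141226 to 23166911, plus strand, protein coding), which is induced by glucocorticoid and thyroid hormone, had 25.9, 27.3 and 24.4 CPM in the controls against 23.6, 20.9 and 22.1 CPM in Myα5KO hearts. All Myα5KO values were below all controls, by less than 1 CPM at the nearest pair. The log2 fold change was -0.22 (SE 0.09) and was not called (edgeR adjusted p 0.152).

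Klf13 (ENSMUSG00000052040, chromosome 7, 63886351 to 63938915, minus strand, protein coding), known as an activator of Ccl5 in T cells, had 214, 195 and 192 CPM in ITGA5 fl/fl macrophages. It had 191, 184 and 146 CPM in Myα5KO macrophages, where the groups were separated by a narrow margin and replicate 3 was the lowest. The log2 fold change of -0.21 (SE 0.09) was not called (edgeR adjusted p 0.196). It was -0.10 without Myα5KO replicate 3.

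Klf10 (ENSMUSG00000037465, chromosome 15, 38291463 to 38300706, minus strand, protein coding), first described as a gene induced early by TGF-β, had 96.2, 89.5 and 80.5 CPM in the controls against 81.9, 99.8 and 113 CPM in Myα5KO hearts. The groups overlapped, with Myα5KO replicate 1 near the lowest control. The log2 fold change of 0.15 (SE 0.10) was not called (edgeR adjusted p 0.421). It was 0.04 without Myα5KO replicate 3, the library with the highest Klf10.

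**Figure D3:**
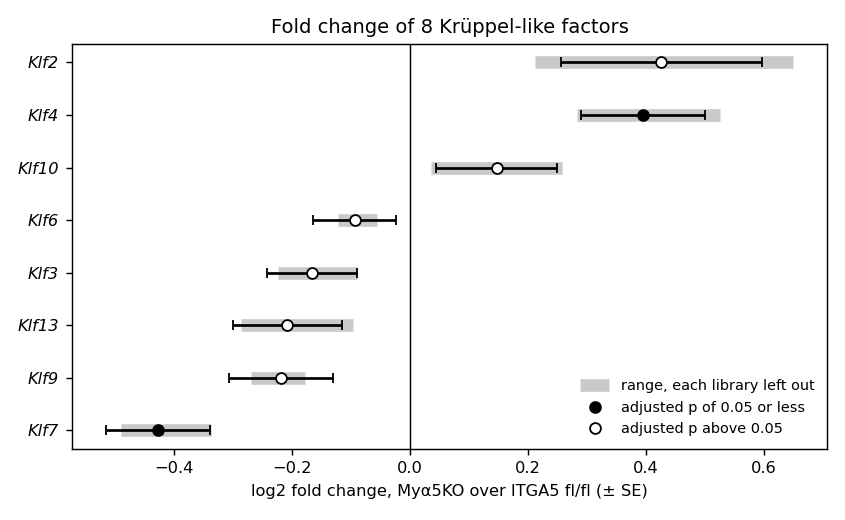
Log2 fold change of Myα5KO over ITGA5 fl/fl macrophages for each member (points, with SE as bars) and the range of this value when each of the 6 libraries was left out (gray bands). Filled points, Klf4 and Klf7, had an edgeR adjusted p of 0.05 or less, and no gray band crosses 0.

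Across the 8 members 5 log2 fold changes were negative and 3 positive, with a median of -0.13 compared with 0.01 over the 14522 tested genes. The groups did not overlap for 4 of the 8 members (Klf4, Klf7, Klf9 and Klf13), compared with 28.6% of tested genes. An unadjusted p under 0.05 was found for 6 of the 8 members and for 23.1% of tested genes. This number of members was not stable. It was 5 with DESeq2, 4 with limma-voom or with library totals only, and 3 to 7 with a library omitted (3 without Myα5KO replicate 3). Each member kept the sign of its fold change under all 17 alternatives, including scaling by library totals, which moved the median of all tested genes from 0.0146 to 0.095 and the higher share of all calls from 40.7% to 70.1%. In Myα5KO replicate 3, 4 members (Klf2, Klf4, Klf6 and Klf10) had their highest and 3 members (Klf3, Klf7 and Klf13) their lowest Myα5KO value. The same 4 members that peaked there were lowest in Myα5KO replicate 1.

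Because several KLF genes respond to tissue dissociation, 16 early-response genes were examined beside them. Of these, 7 were higher and 1 (Ier3) was lower in Myα5KO macrophages, with a median log2 fold change of 0.41. Without Myα5KO replicate 3, 5 were higher and 1 lower, and the number of higher genes moved between 1 (without control replicate 3) and 13 (without Myα5KO replicate 1), with 4 without Myα5KO replicate 2. The AP-1 subunits Fos (0.55) and Fosb (0.41), the stress-induced factor Atf3 (0.59), the antiproliferative gene Btg2 (0.65) and the nuclear receptor Nr4a1 (0.42) rose on the log2 scale. The summed CPM of all 16 genes was 13242, 14184 and 12859 in the controls against 13650, 16804 and 19192 in Myα5KO libraries. Myα5KO replicate 1 lay within the control range for this sum and for Klf10 and just below it for Klf2. For Klf4 it lay above all controls (489 against 344 to 480 CPM) and for Klf6 below them (742 against 819 to 873 CPM). Replicate 3 was highest of all libraries for the sum, Klf2, Klf4 and Klf10. Klf6 was highest in a control (873 CPM), with a log2 fold change of -0.09. The part of early-response induction in the Klf4 and Klf2 values was not tested.

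Markers of other cells were set beside the members, since KLF2 and KLF4 are known to be expressed in monocytes, endothelium and lymphocytes. In bulk libraries, fewer cells of a type and less RNA per cell cannot be told apart. Of 10 monocyte markers, 6 were higher and 0 lower (8 with an unadjusted p under 0.05), including Ccr2 (log2 fold change 0.58), Ly6c2 (0.71), Spn (0.49) and Cx3cr1 (0.44), and 6 were higher without Myα5KO replicate 3. Their summed CPM was 1602 to 1784 in the controls against 2148 to 2431 in Myα5KO libraries, without overlap. Nr4a1, which is also in the early-response list, made up most of this sum, and without it the markers summed to 653 to 728 CPM in the controls against 896 to 951 CPM in Myα5KO libraries. Endothelial markers summed to 402 to 459 and 426 to 478 CPM, with 1 of 10 higher (Kdr) and 1 lower (Cldn5). B-cell markers summed to 119 to 164 and 165 to 255 CPM, separated by a narrow margin (2 of 8 higher). The log2 fold change was positive for all 8 (median 0.59), and 7 had an unadjusted p under 0.05. T and NK cell markers summed to 94.8 to 111 and 97.6 to 111 CPM (1 of 7 tested higher). Il7r made up most of the T and NK cell sum, and without it the other markers summed to 16.7 to 21.9 CPM in the controls against 23.7 to 30.9 CPM in Myα5KO libraries, without overlap. The log2 fold change was positive for 6 of these 7 tested markers, and 4 had an unadjusted p under 0.05.

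Fibroblast markers summed to 1633 to 1914 CPM in the controls against 1223 to 1589 CPM in Myα5KO libraries, without overlap, with 1 of 8 lower (Postn). The log2 fold change was positive for 0 of the 8 (median -0.29), and 6 had an unadjusted p under 0.05. DESeq2 called 3 of them. Of 6 tested cardiomyocyte markers, 2 were lower, and 3 had an unadjusted p under 0.05. Sums were 19.1 to 21.6 and 12.6 to 16.7 CPM. Of 7 tested granulocyte markers, 5 were higher at sums of 37.4 to 54.6 and 72.0 to 193 CPM, while Ly6g itself had 0 to 2 counts per library. Of 8 dendritic cell markers 1 was higher (Cd209a), with sums of 95.0 to 125 and 116 to 128 CPM, and of 2 tested erythroid markers 0 were called by edgeR or DESeq2 (1 with an unadjusted p under 0.05), with sums of 4.63 to 8.82 and 4.05 to 5.63 CPM. Macrophage markers were abundant in each library. They summed to 17354 to 17567 CPM in the controls against 15330 to 16169 CPM in Myα5KO libraries, without overlap. Among the 10, Fcgr1 was higher and Cd14 lower, and the log2 fold change was positive for 1 (median -0.05). Cd14 alone had a mean of 4755 CPM in the controls and 3489 CPM in Myα5KO libraries. With a library omitted, 5 to 6 monocyte and 4 to 6 granulocyte markers were higher. The other marker counts were small and moved, up to 6 higher B-cell markers without Myα5KO replicate 2 and 4 lower fibroblast markers without Myα5KO replicate 1. The part of these cell types in the values of Klf4, Klf2 and Klf7 was not tested.

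**Figure D4:**
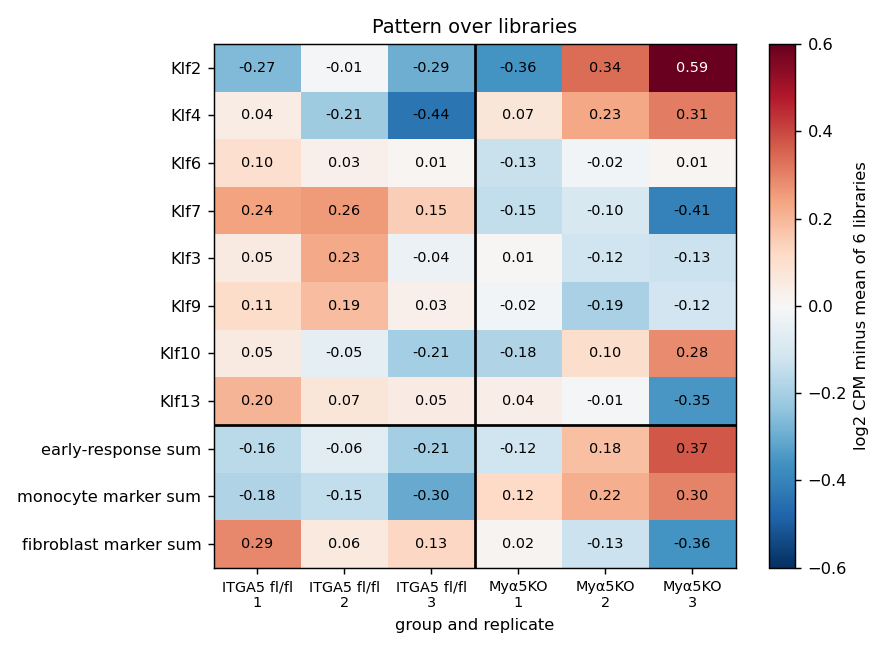
Log2 CPM of each member and of the summed early-response genes, monocyte markers and fibroblast markers, as the difference from the mean of the 6 libraries (color scale and numbers), with libraries in columns. Nr4a1 is in both the early-response and the monocyte sum. Klf2 ranges from -0.36 in Myα5KO replicate 1 to 0.59 in replicate 3, and the early-response sum from -0.12 to 0.37 in the same libraries, whereas Klf7 is lowest in replicate 3 (-0.41).

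The other 9 KLF genes of the table were examined to see whether a related factor changed beside the members. Of these, 4 were tested and 0 were called by edgeR, with 0 at an unadjusted p under 0.05 and 0 called by DESeq2. Klf16 had 37.4 ± 5.57 and 36.9 ± 1.54 CPM (log2 fold change -0.02), and Klf11, a close relative of Klf10, had 23.7 ± 0.925 and 25.9 ± 2.88 CPM (0.13). Klf8 and Klf12, which share the CtBP motif with Klf3, were scarce, at 2.86 ± 0.360 and 1.16 ± 0.581 CPM in ITGA5 fl/fl macrophages. Klf5 held 4 to 20 counts per library, Klf1, the erythroid factor, 0 to 4 and Klf15 0 to 2, and these genes were not tested. For Klf14 and Klf17 each library counted 0, a value that still allows up to 3 counts per library. Among the 4 tested Sp factors, which bind the same GC boxes, 0 were called (0 by DESeq2 and 0 at an unadjusted p under 0.05), and Sp1 had 73.3 ± 2.37 and 74.5 ± 1.12 CPM.

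KLF2 and KLF4 are induced through the MEK5-ERK5-MEF2 cascade, so its genes were examined next. Of 7 tested genes, 1 was higher and 1 lower. DESeq2 called 1 of the 7, and 3 had an unadjusted p under 0.05 in edgeR. Mef2c, a transcription factor of this cascade, had 117, 112 and 117 CPM in the controls against 136, 135 and 128 CPM in Myα5KO hearts (log2 fold change 0.21, SE 0.06, edgeR adjusted p 0.0491). Map3k2, a kinase upstream of MEK5, had 166, 150 and 152 CPM in the controls against 133, 134 and 118 CPM in Myα5KO hearts (log2 fold change -0.28, SE 0.07, edgeR adjusted p 0.0267). The groups did not overlap for either gene. Mef2d, of the same factor family as Mef2c, went the other way (log2 fold change -0.18, SE 0.07). It was not called (edgeR adjusted p 0.123), although each Myα5KO library was below each control. Mean levels in the controls were 59.1 FPKM for Mef2d and 7.30 FPKM for Mef2c. Mef2a (-0.06) was not called. Mapk7, which encodes ERK5, had 31.3 ± 2.20 and 31.8 ± 2.82 CPM and was not called. Of the 6 fits that each omitted a library, 1 called a higher gene (without Myα5KO replicate 3) and 1 a lower gene (without Myα5KO replicate 1), and 0 genes were called in the others.

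Of 14 co-factors and ubiquitin ligases that act with KLF proteins, 2 were higher and 0 lower, beside 3.56% and 5.19% of all tested genes. These were Btrc, a substrate receptor of a ubiquitin ligase (log2 fold change 0.44, edgeR adjusted p 0.0184), and the histone deacetylase Hdac2 (0.30, edgeR adjusted p 0.0401). DESeq2 called 1 of the 14. An unadjusted p under 0.05 in edgeR was found for 5, among them Ep300 (0.16), Fhl3 (-0.21) and Crebbp (-0.20). The log2 fold change was positive for 10 of the 14. Omitting a library gave 0 higher genes without control replicate 2 or 3, 2 higher and 1 lower without Myα5KO replicate 1, and 1 higher otherwise. The partner of Klf3, Ctbp1, had 140 ± 8.98 and 151 ± 4.59 CPM, and that of Klf9, Klf10 and Klf13, Sin3a, had 61.9 ± 1.80 and 61.3 ± 1.35 CPM. Neither was called.

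Genes regulated by KLF2 or KLF4 in other settings, or linked to another member, included 6 of 18 called lower and 1 called higher, beside 5.19% and 3.56% of all tested genes. The log2 fold change was positive for 8 of the 18, with a median of -0.08 against 0.01 over all tested genes. S1pr1, the sphingosine-1-phosphate receptor activated by KLF2 in T cells, had 114, 118 and 118 CPM in the controls against 95.1, 98.2 and 85.0 CPM in Myα5KO hearts (log2 fold change -0.33, edgeR adjusted p 0.0097). Tissue factor F3 (-1.40) and Il6 (-0.95), which KLF2 is known to reduce in endothelium or myeloid cells, were lower, as was Cdkn1a (-0.28), which KLF4 and KLF6 are known to activate. Arg1, an alternative activation gene linked to KLF4, was called lower (-1.60, edgeR adjusted p 0.0261) although its groups overlapped, with 328 ± 248 CPM in the controls against 108 ± 16.9 CPM in Myα5KO hearts. The alternative activation genes Mrc1 (-0.12), Retnla (-0.32) and Pparg (0.25) and the KLF2 targets Thbd (-0.04) and Nos3 (0.08) were not called, nor was Ccl5 (0.12), the target of KLF13. With a library omitted, 4 (without control replicate 2 or 3) or 5 were lower, and 0 or 1 higher. Il6 responds to many other factors, and the relation of these genes to the members was not tested.

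Glucocorticoid-response genes, the group in which Klf9 is placed, went both ways, with 2 of 11 higher and 2 lower. Txnip (log2 fold change 0.43) and the phosphatase gene Dusp1 (0.27) were higher, and Ddit4 (-0.58) and Sgk1 (-0.30) were lower. Omission of a library left 0 higher genes without control replicate 1 or 3 or Myα5KO replicate 3, and 4 without Myα5KO replicate 1, while 1 or 2 were lower. DESeq2 called 4 genes with all libraries. The receptor gene Nr3c1 had 103 ± 3.08 and 112 ± 4.53 CPM and was not called. Among 11 TGF-β and Smad genes, the pathway after which Klf10 was first named, 0 were higher and 2 were lower, which were Smad3 (-0.37, edgeR adjusted p 0.0297) and Pmepa1 (-0.28, edgeR adjusted p 0.0291). DESeq2 called 3 of the 11, and 4 had an unadjusted p under 0.05. In edgeR fits, 0 were called without control replicate 1 or 2 or Myα5KO replicate 3, and 1 was lower when any other library was omitted.

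The genes most like the called members over the 6 libraries were identified by the root mean square difference of log2 CPM, each centered on its own mean, among 9360 candidate genes with 100 or more counts per library on average. For Klf4 these were Gpr34, a lysophosphatidylserine receptor (difference 0.025), Sh2d1b1 (0.038) and Enc1 (0.046). Gpr34 was called higher with a log2 fold change of 0.39, and Sh2d1b1 (0.41) and Enc1 (0.36) were not called. For Klf7 they were Samd4b (difference 0.032), the transcription factor gene Arid3a (0.032) and Nfat5, which encodes a factor of the osmotic stress response (0.036). All 3 were called lower, with log2 fold changes of -0.41, -0.40 and -0.40. These genes were picked for the likeness of their values, which is a description of these libraries.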

How the data were processed

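RNA of Ly6G-negative, CD11b-positive cells from infarcts was sequenced as paired-end, poly(A)-selected libraries, 3 per genotype. Per the labels and methods, the authors aligned filtered reads to GRCm38.p6 with TopHat2 2.0.9 and deposited whole-number read counts per gene from HTSeq 0.6.1, without normalization. The authors also deposited FPKM values of the same genes. The handling of strand and of multi-mapped reads is not given in the sources used here, so overlapping genes are uncertain. Groups and replicate numbers were taken from the titles. Separate hearts were used, so p-values measure the spread between animals and its technical part together.

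Differences in counts were assessed by quasi-likelihood in edgeR 4.0.16 (R 4.3.3; TMM; default filter, minimum count 10 and minimum total count 15; two-sided) with Benjamini-Hochberg adjustment over 14522 genes, and called at an adjusted p of 0.05 or less. DESeq2 1.42.0, limma-voom and limma on log2(FPKM + 1) or log2(FPKM + 0.1) (limma 3.58.1; genes reaching FPKM 1 in 3 libraries or more), other scalings and filters, a replicate block, omission of each library in turn and an adjusted p of 0.01 were alternatives. List counts with a library left out and marker sums without Nr4a1 or Il7r were added after seeing the data. Scripts were tested on simulated data.

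The members, gene lists and tests were chosen with earlier results of these data known. Named were all members and other KLF genes, up to 6 called genes per list and others of a defined role, and the 3 genes most like each called member. Some genes counted in the lists are not reported here by name. Totals were 15424451 to 18419287 counts per library. Counting errors cover counting only, since reads carried no molecular identifiers.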

Additional observations from a re-analysis of the deposited data

How the results depend on the processing

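All 8 members kept the direction of their fold change under each of the 17 alternatives, and 124 of the 136 member values also kept their side of the threshold. Klf7 was called in 15 alternatives and Klf4 in 9. On the scale of log2(FPKM + 1), 0 members were called higher and 0 lower by limma (3 at an unadjusted p under 0.05), with 150 genes higher and 322 lower among 11495 tested. With a pseudocount of 0.1 the values were 0, 0, 142 and 306 (3 members at an unadjusted p under 0.05). Library totals as the only scaling gave 1212 higher genes. Without a count filter 2 members (Klf2 and Klf4) and 798 genes were higher, in a fit whose prior degrees of freedom were infinite, so its p-values were kept out of the ranges. At an adjusted p of 0.01, 0 members were higher, and 128 genes were higher and 342 lower, by construction. Omission of each library in turn gave 0 to 2 members higher and 1 member lower each time, and 187 to 420 genes higher and 429 to 671 lower. With the replicate number as a block 0 members were higher in the edgeR test (Klf4 adjusted p 0.054, 6 members at an unadjusted p under 0.05) and 1 was lower. The numbers were not taken to pair the hearts, because deviations of same-numbered libraries correlated at 0.0509, -0.0576 and 0.0434, and not every library correlated best with its own number. The cause of these lost calls was not tested. Counting error was at most 5.09%, and it was close to the spread between control hearts for Klf9 (5.5%) and Klf7 (4.07%) and below it for the other members.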
